A study of Mus musculus with 6 samples.

Results

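Lymphoid-primed multipotent progenitors (LMPP) were set against haematopoietic stem cells (HSC) of mouse fetal liver in 2 pairs of arrays, and the gene differences found in both pairs are described here. The comparison uses 4 of the 6 arrays of the series. The wild type pair came from wild type littermates, and the other pair came from mice labelled Satb1-null, both on a C57BL6/J background at E18.5 of gestation. HSC-enriched cells were lineage-negative, c-kit-high, Sca-1-positive and Flt3-negative, and LMPP-enriched cells had the same phenotype but carried Flt3. The remaining 2 arrays hold common lymphoid progenitor (CLP) enriched cells of each genotype, which were lineage-negative, c-kit-low, Sca-1-low and IL7Rα-positive, and only their levels are given. The study was set up to find genes that depend on Satb1, and here its 2 genotypes serve as 2 repeats of the population step. Each of the 6 groups had 1 array, and neither the number of embryos behind an array nor their sharing between HSC and LMPP is stated. The spread between pairs therefore holds genotype, embryo and technical differences together.

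HSC renew themselves and give rise to every blood lineage. In the fetal liver they expand in number, and they share their Kit-high, Sca-1-positive gate with progenitors that are already restricted. Gain of Flt3, the receptor for Flt3 ligand, marks the step to LMPP, which keep lymphoid and granulocyte-monocyte potential and have little megakaryocyte and erythroid potential left. Satb1 is a nuclear protein that organises chromatin loops and is best known from thymocytes.

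In both pairs, the LMPP arrays carried higher levels of early lymphoid genes (Ccr9, Rag2, Satb1), of MHC class II genes (H2-Aa, H2-Ab1, H2-DMb2, Cd74), of Irf8 and Ctss, and of the chemokine genes Ccl3, Ccl4 and Ccl9. The HSC arrays carried higher levels of mast cell genes (Cpa3, Cma1, Il1rl1, Tpsb2, Hdc), of the erythroid regulators Gata1, Epor and Klf1, of the granule protease genes Elane and Ctsg, of the imprinted genes Plagl1, Grb10, Meg3 and Peg3, and of Thy1 and Gata2. A level is the log2 processed signal of a gene's brightest probe relative to the 75th percentile of its array, and a difference is LMPP minus HSC on that scale. Levels of different genes are not compared. Each array is a bulk sample, so a change in the share of some cells in the gate and a change in RNA per cell cannot be told apart.

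The share of spots well above background ranged from 52.4% to 57.7% per array. Of 20660 named genes, 12830 were well above background on the brighter array of each pair and were compared. Repeated spots of a probe had a median SD between 0.0773 and 0.0821 on the 4 arrays, and the scanner's own error put a median error of 0.205 on a difference. These errors leave out amplification and sorting. All arrays lay on 1 slide, with the HSC arrays in slide column 1 and the LMPP arrays in slide column 2, so slide column and population cannot be told apart, and likewise slide row and genotype. Xist, transcribed from the inactive X chromosome, was below that call on both wild type arrays and stood at 4.74 and 4.18 on the null-labelled ones. Ddx3y, on the Y chromosome, stood at 0.19 and 0.44 on the wild type HSC and LMPP arrays and at -1.64 and -2.44 on the null-labelled ones. The genotypes thus differed in these sex-linked genes, while the 2 arrays of a pair were alike in Xist.

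The sort markers and Satb1 were looked at first. Flt3, which the sort itself used, stood at 1.18 and 1.35 on the wild type and null-labelled HSC arrays and at 3.21 and 3.32 on the LMPP arrays, so the pairs gave differences of 2.04 and 1.98. Kit stood between 4.38 and 4.63 on the 4 arrays, with differences of 0.15 and -0.25. The gene of Sca-1, Ly6a, had levels of 0.29 and 0.35 on the HSC arrays and at 1.12 and 0.14 on the LMPP arrays. Kit and Ly6a were thus close between the populations, apart from the higher Ly6a level on the wild type LMPP array. Il7r, which encodes the IL-7 receptor chain of the CLP sort and was not part of the HSC or LMPP gate, stood at -2.64 and -1.71 on the HSC arrays and at -0.51 and 0.12 on the LMPP arrays. Satb1 stood at -0.03 and 2.0 on the wild type HSC and LMPP arrays and at -0.59 and 1.96 on the null-labelled ones. Its signal was about as high in the null-labelled LMPP as in the wild type LMPP, and the difference between the populations was 2.03 and 2.55 in the pairs. The position of the Satb1 probe relative to the deletion is unknown here, and its signal does not check the genotype labels.

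Of the 12830 genes compared, 233 (1.82%) were at least 2-fold higher in LMPP in both pairs and 239 (1.86%) were at least 2-fold lower. A further 77 genes (0.6%) were at least 2-fold higher in the wild type pair and 2-fold lower in the null-labelled pair, and 72 (0.561%) ran the other way. Within a single pair such differences were more frequent. In the wild type pair the 2-fold threshold was passed upward by 1021 of 13712 genes (7.45%) and downward by 919 (6.7%), and in the null-labelled pair 991 of 13616 (7.28%) were higher and 1120 (8.23%) lower. The repeated genes made up 22.8% of the genes higher in the wild type pair and 23.5% of those higher in the null-labelled pair, and 26.0% and 21.3% of those lower. Across the 11619 genes well above background on all 4 arrays, the differences of the pairs had a Pearson correlation of 0.32 and a Spearman correlation of 0.31. This describes these arrays, since genes are not independent replicates; the pairs share no array. Of the repeated genes, 148 higher and 140 lower ones were well above background on all 4 arrays, and the other 85 and 99 rest in part on a bound. Of 57 other probes of repeated genes that were well above background on all 4 arrays, 38 had the same direction in both pairs, 19 were 2-fold the same way and 4 were opposite.

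**Figure D1:**
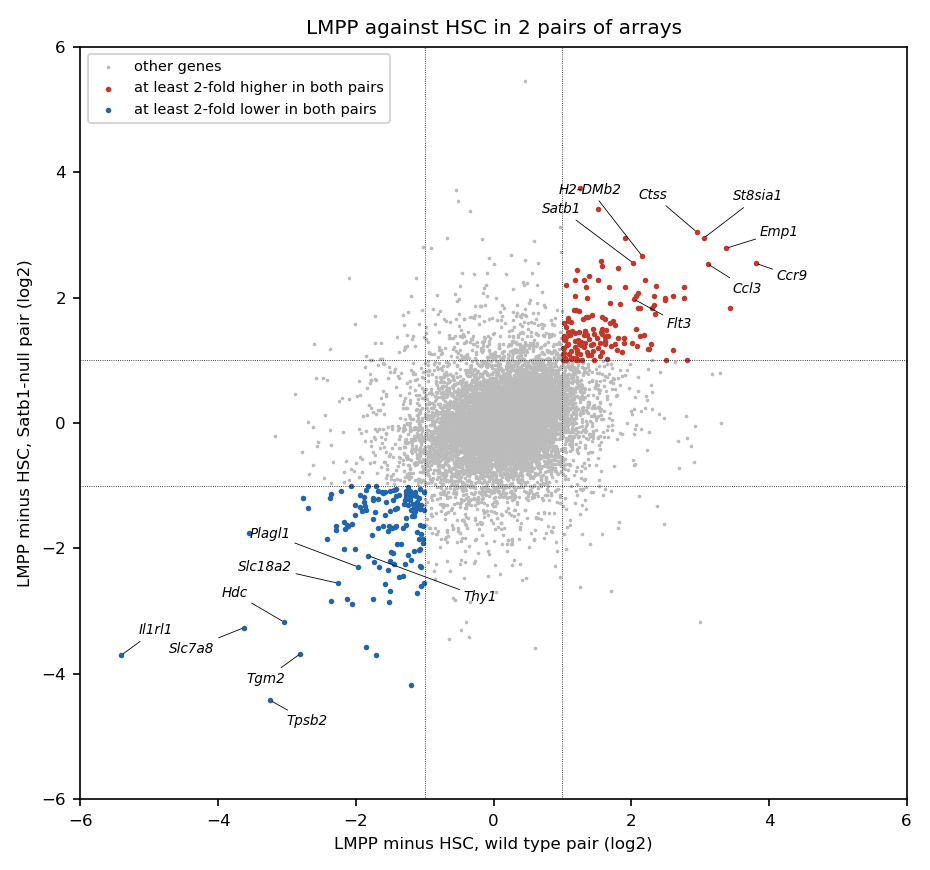
Each point is 1 of 11619 genes well above background on all 4 arrays, with its LMPP minus HSC difference (log2) in the wild type pair on the x axis and in the Satb1-null pair on the y axis; dotted lines mark a 2-fold difference. The 148 red genes at the upper right and the 140 blue genes at the lower left differed at least 2-fold the same way in both pairs, with Ccr9, Emp1 and St8sia1 far out on the higher side and Il1rl1 and Tpsb2 on the lower side.

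The limma fit of population with genotype as a block, over 12662 genes, called Cpa3 lower in LMPP (mean difference -5.33, SE 0.30, adjusted p = 0.0424) and no other gene. That is 0 genes higher (0%) and 1 lower (0.0079%). The wild type LMPP value of Cpa3 was not well above background (-5.92). It was raised to that array's lowest signal well above background (-4.04), so the mean difference, SE and adjusted p rest in part on a bound. The fit has 1 residual degree of freedom. An unadjusted p under 0.05 was reached by 949 genes higher (7.49%) and 786 lower (6.21%). An adjusted p under 0.10 was reached by 29 genes higher and 28 lower, and all 57 were also at least 2-fold the same way in both pairs. Both criteria use the same 2 pair differences, so this overlap is no separate support. The Cpa3 call was lost under 7 of 12 alternative settings, among them the setting that did not raise dim values, and 1 of the 7 left the gene untested. The counts also move with the scaling. The median difference of all genes compared was 0.21 in the wild type pair and 0.04 in the null-labelled pair. With each array centred on its median instead, those medians were 0.52 and 0.12, and the repeated genes split into 357 higher and 149 lower. With the 75th percentile taken over probes well above background on all 4 arrays they split into 169 and 307. Across the scalings run, 60 of the 233 higher and 40 of the 239 lower genes were called under each.

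Among genes well above background on all 4 arrays and ranked by the smaller of their 2 pair differences, St8sia1, Ctss and Emp1 came first on the higher side. By the mean of the pairs Ccr9 lay above them, at 3.18. St8sia1, a sialyltransferase that makes the ganglioside GD3, stood at 0.99 and 0.90 on the wild type and null-labelled HSC arrays and at 4.04 and 3.85 on the LMPP arrays, an 8.03-fold mean difference. Ctss, cathepsin S, a lysosomal protease that trims the invariant chain of MHC class II, stood at -0.02 and -0.42 in HSC and at 2.93 and 2.63 in LMPP, an 8.0-fold mean difference. Emp1, an epithelial membrane protein, stood at -0.13 and 0.17 in HSC and at 3.25 and 2.96 in LMPP. For each of these genes both LMPP arrays lay above both HSC arrays and their limma means were 3.0 (SE 0.28, adjusted p = 0.0571), 3.0 (SE 0.28, adjusted p = 0.0571) and 3.09 (SE 0.30, adjusted p = 0.0604). Rbm47, an RNA-binding protein, had differences of 2.76 and 2.17, and its other probe gave 1.46 and 2.19. Cd33, a sialic acid binding lectin of myeloid cells, stood at -1.79 and -1.38 in HSC and at 0.56 and 0.80 in LMPP. Ptger2, a prostaglandin E2 receptor, and Kmo, an enzyme of tryptophan breakdown, were higher by 2.33 and 2.02 and by 2.49 and 2.0. Pomc, the precursor of corticotropin, was higher by 2.19 and 2.28, at levels of -0.89 and -1.06 in LMPP. Tex33, a gene named for the testis, was higher by 2.07 and 2.03, at dim levels of -1.91 and -1.54 in LMPP.

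**Figure D2:**
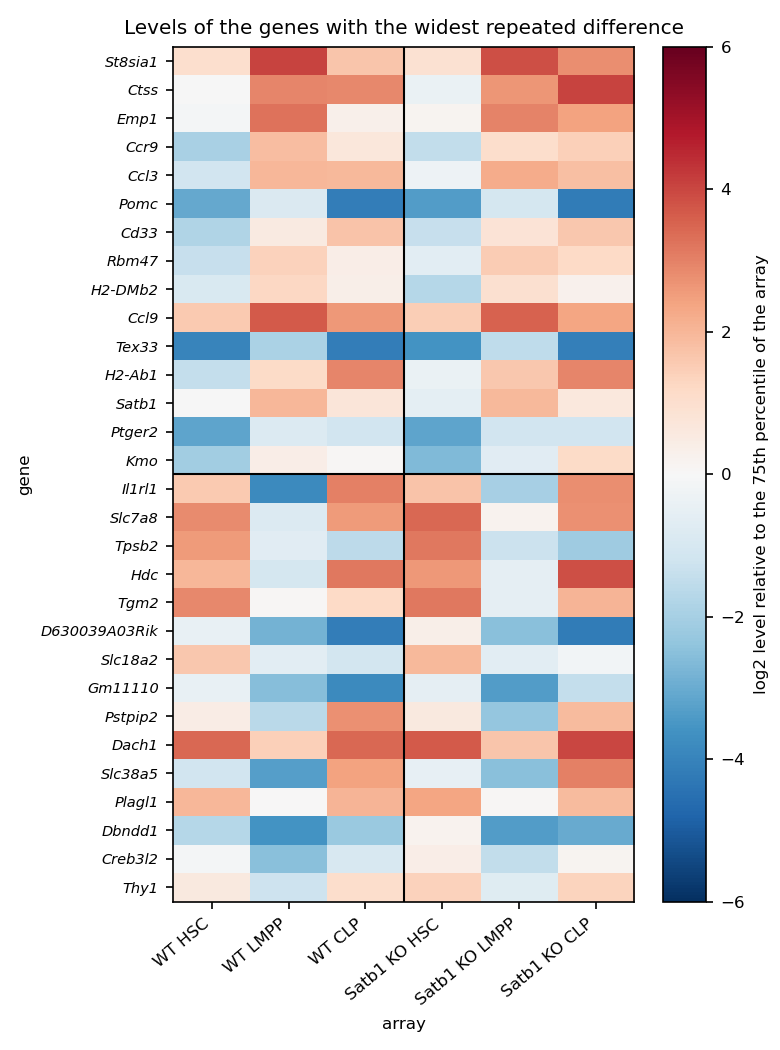
Colour shows the log2 level relative to the 75th percentile of each array for the 15 genes widest on the higher side (above the horizontal line) and the 15 widest on the lower side, among genes well above background on all 4 LMPP and HSC arrays; columns are the 6 arrays. In both genotypes the LMPP column is redder than the HSC column above the line and bluer below it, while the CLP columns vary by gene, with Il1rl1 high at 3.01 and 2.80 and Pomc not above background.

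A further set had no HSC signal well above background in either genotype and has only a bound. H2-Aa, an MHC class II chain, was at least 15.9-fold higher in LMPP, where it stood at -0.45 and 0.45. Btla, an inhibitory receptor of lymphocytes, was at least 9.75-fold higher, with LMPP levels of -0.47 and -1.03. Zfp365 was at least 8.0-fold higher, Kcng1 at least 6.61-fold and Tox3 at least 4.82-fold. These 5 genes were picked for a signal well above background in LMPP of both genotypes and in HSC of neither.

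Early lymphoid genes were mostly higher in LMPP. Of 25 listed genes 22 were compared; 7 were at least 2-fold higher in both pairs and none lower, against 1.82% and 1.86% of all genes compared. The list median was 1.16 in the wild type pair and 0.85 in the null-labelled pair, against 0.21 and 0.04 over all genes, and the median of its pair means stayed between 0.61 and 1.19 under 9 alternative settings. Ccr9, the chemokine receptor that guides progenitors to the thymus, stood at -1.94 and -1.48 on the wild type and null-labelled HSC arrays and at 1.87 and 1.07 on the LMPP arrays. Rag2, of the V(D)J recombinase, stood at -1.56 and -2.66 in HSC and at 0.01 and -0.16 in LMPP, so the gap was wider in the null-labelled pair (2.5) than in the wild type pair (1.57). Its partner Rag1 was dim, with -2.48 and -2.84 in LMPP, and differed by at least 1.55, against a wild type HSC signal not above background, and by -0.25. Dntt, the terminal transferase, was higher by 0.95 and at least 1.04, at levels of -2.21 and -2.70 in LMPP. Thus Rag2 was 2-fold higher in both pairs while Rag1 and Dntt, the other genes of antigen receptor assembly on the list, were not. Lax1, an adaptor in lymphocyte signalling, was higher by 2.26 and 1.19, and Cd52, a surface glycoprotein of lymphocytes, by 1.35 and 1.99. Il12a, a subunit of IL-12, and Ramp1, a co-receptor for calcitonin-type peptides, were also past 2-fold, with 1.12 and 1.61 and with 1.19 and 1.0, and Satb1, described above, was the last of the 7. Notch1, the receptor that starts T cell development, differed by 2.10 in the wild type pair and 0.73 in the null-labelled pair. Ikzf3, Aiolos, was the member that was lower in both pairs, by 0.68 and 1.71 on the log2 scale.

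Of the B lineage list 9 of 20 genes were compared and of the T lineage list 8 of 19, and no member of either was past 2-fold in both pairs. Ebf1 and Ms4a1 of the B lineage and Cd3d, Cd3g and Bcl11b of the T lineage were not well above background on any of the 4 arrays. The T lineage median was 0.19 and 0.67, with Lck, the kinase of the T cell receptor, higher by 1.21 and 0.73. The B lineage median was -0.10 and -0.15, and it changed sign under 2 of 9 alternative settings. Among genes of natural killer and innate lymphoid cells, Il2rb, the IL-2 and IL-15 receptor chain, and Klrd1, CD94, were not well above background in HSC and stood at -1.98 and -1.98 and at -2.64 and -2.31 in LMPP. Zbtb16, PLZF, a factor of innate-like lymphocytes, was lower, with 1.70 and 1.03 in HSC and -0.46 and -0.66 in LMPP. Id3, an inhibitor of E proteins, was higher by 1.46 and 1.42, and was the 1 gene past 2-fold in both pairs among 24 E protein, Id, Ikaros, Ets and Runx genes. That list had medians of 0.56 and 0.26, and 15 of its 24 genes were higher in both pairs and 4 lower. Over all genes compared, 39.2% were higher in both pairs and 22.8% lower, and 1.82% were at least 2-fold higher in both.

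Printed here are promoters of 4 genes that were higher in LMPP and hold the letters AGGAAGT, an Ets core of the kind bound by PU.1, in the 300 bases from 250 before to 50 after the start of transcription. The sequences are RefSeq's for GRCm38.p6, read 5′ to 3′ on the strand of the gene, with the match in capitals; ACTTCCT is the same motif on the opposite strand. Ctss lies at chr3:95526536-95526835 on the plus strand, Satb1 at chr17:51833241-51833540 on the minus strand, Kmo at chr1:175631943-175632242 on the plus strand and Btla at chr16:45224087-45224386 on the plus strand. Satb1 has 5 starts in the table, and the first listed is shown.
Ctss: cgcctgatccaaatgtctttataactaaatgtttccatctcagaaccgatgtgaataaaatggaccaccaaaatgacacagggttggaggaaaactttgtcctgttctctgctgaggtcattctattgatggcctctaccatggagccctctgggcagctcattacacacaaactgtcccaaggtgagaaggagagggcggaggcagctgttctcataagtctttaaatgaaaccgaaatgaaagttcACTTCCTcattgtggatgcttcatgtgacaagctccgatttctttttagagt
Satb1: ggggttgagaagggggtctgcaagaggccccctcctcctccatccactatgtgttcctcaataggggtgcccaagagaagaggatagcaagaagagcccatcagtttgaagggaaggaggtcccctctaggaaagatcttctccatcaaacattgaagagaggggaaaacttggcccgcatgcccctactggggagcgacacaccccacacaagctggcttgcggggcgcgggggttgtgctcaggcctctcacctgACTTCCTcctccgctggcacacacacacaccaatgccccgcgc
Kmo: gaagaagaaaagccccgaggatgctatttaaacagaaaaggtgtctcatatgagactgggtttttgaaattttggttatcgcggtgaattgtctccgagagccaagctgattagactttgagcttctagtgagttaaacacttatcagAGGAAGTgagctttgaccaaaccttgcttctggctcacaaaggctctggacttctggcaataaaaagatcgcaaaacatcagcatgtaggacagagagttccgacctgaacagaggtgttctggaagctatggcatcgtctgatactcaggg
Btla: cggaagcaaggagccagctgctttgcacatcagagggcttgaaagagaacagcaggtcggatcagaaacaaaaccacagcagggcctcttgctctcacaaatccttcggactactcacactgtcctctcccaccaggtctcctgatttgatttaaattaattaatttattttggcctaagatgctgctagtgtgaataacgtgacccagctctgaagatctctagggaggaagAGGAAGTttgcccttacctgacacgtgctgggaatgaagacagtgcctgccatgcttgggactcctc
The first base of the match lies 2 bases before the start in Ctss, 102 before it in Kmo and 17 before it in Btla, and 7 bases after it in Satb1. On either strand the motif stood in 16.8% of the 184 promoters found for the genes higher in LMPP, in 7.29% of the 192 found for the genes lower, in 9.36% of 10315 found for all genes compared and in 9.57% of all 27025 promoters in the table. The Runx motif TGTGGT stood in 20.7%, 12%, 13.2% and 16.9%, and the E-box CAGCTG in 16.8%, 19.8%, 14.6% and 16.1%. These motifs were picked after their shares had been seen, and the shares were not tested. A match describes letters and is no evidence of binding.

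MHC class II genes, which present peptides on antigen-presenting cells, were higher in LMPP as a list. Each of its 10 genes was compared; 5 were at least 2-fold higher in both pairs and none lower. The median was 1.23 in the wild type pair and 1.97 in the null-labelled pair, against 0.21 and 0.04 over all genes. H2-Ab1, the beta chain of I-A, stood at -1.44 and -0.42 on the wild type and null-labelled HSC arrays and at 1.16 and 1.62 on the LMPP arrays, and its other probe gave differences of 2.74 and 2.20. H2-DMb2, of the peptide loading complex, stood at -0.93 and -1.69 in HSC and at 1.23 and 0.97 in LMPP. Cd74, the invariant chain, stood at -2.18 and -1.08 in HSC and at -0.49 and 0.84 in LMPP. The chains, the loading gene and the invariant chain thus lay higher in LMPP of both genotypes. H2-Ob was higher by 1.35 and 2.17, while H2-Eb1, the beta chain of I-E, was not above background in HSC and higher by at least 0.86 and 2.88. Ciita, the class II transactivator, did not follow, with differences of -0.47 and -0.24, and H2-DMb1 differed by 0.78 and -0.43.

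Myeloid genes divided. Among 27 granulocyte and monocyte genes, 2 passed 2-fold upward in both pairs and 4 downward, against 1.82% and 1.86% of all genes compared. The list median was -0.02 and 0.04, with a sign that changed under 2 of 9 alternatives. Irf8, a transcription factor of monocytes and dendritic cells, stood at -0.34 and -0.51 on the wild type and null-labelled HSC arrays and at 1.57 and 1.67 on the LMPP arrays. Lcn2, lipocalin of neutrophil granules, stood at 2.45 and 3.12 in HSC and at 3.77 and 4.34 in LMPP. On the lower side, Elane, neutrophil elastase, stood at 3.24 and 4.04 in HSC and at 0.96 and 2.39 in LMPP. Lcn2 and Elane, both of neutrophil granules, thus lay on opposite sides. Ctsg, cathepsin G, was lower by 1.20 and 1.17 on the log2 scale, Cebpe, a factor of granule formation, by 1.09 and 2.03, and Ms4a3, a marker of granulocyte-monocyte progenitors, by 2.08 and 1.0. Prtn3, another granule protease gene, was close between the populations, with differences of -0.07 and -0.19. Mpo, myeloperoxidase, was bright on all 4 arrays and close, at 7.53 and 7.80 in HSC and 7.26 and 7.31 in LMPP. Spi1, which encodes PU.1, differed by 1.07 and 0.31. In the dendritic cell list 5 of 12 genes were compared; Tcf4 was higher by 0.92 and 1.09, and Clec10a, a lectin of dendritic cells and macrophages, was lower by 1.13 and 1.16 on the log2 scale. Macrophage markers were dim: 3 to 7 of 14 were well above background per array, Timd4, Cd163 and Mertk on none, and their summed level (on a linear scale, in units of the 75th percentile) was 1.0 and 1.01 in HSC and 0.782 and 2.32 in LMPP. Of 14 hepatocyte genes, 4 to 6 were well above background per array, with Ttr, Fgb and Apob at background on each array. Trf and Apoa2 were well above background on all 4. Trf stood at 1.01 and 1.23 in HSC and at 1.34 and 1.83 in LMPP. The summed level of the list was 3.07 and 3.99 in HSC and 3.49 and 4.59 in LMPP.

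Chemokine ligand genes were grouped after their values had been seen. Of 38 listed, 18 were compared. In both pairs 6 were at least 2-fold higher and 1, Cxcl2, was lower (by at least 1.78 and 1.01 on the log2 scale). Of all genes compared, 1.82% were at least 2-fold higher in both pairs and 1.86% lower. The list median was -0.11 and 0.65. Ccl3 stood at -1.13 and -0.31 on the wild type and null-labelled HSC arrays and at 1.98 and 2.23 on the LMPP arrays. Ccl4, a related chemokine, stood at 2.58 and 3.17 in HSC and at 4.92 and 4.90 in LMPP. Ccl9 stood at 1.57 and 1.48 in HSC and at 3.67 and 3.55 in LMPP. For these 3 genes both LMPP arrays were above both HSC arrays. Ccl6 was not above background in HSC and stood at -2.39 and -2.14 in LMPP. The other 2, Pf4 and Ppbp, are platelet chemokines, and they were higher by 1.02 and 1.59 and by 1.0 and at least 3.48, while the megakaryocyte list had medians of -0.17 and -0.00, with a sign that changed under 1 of 9 alternatives. Of the RNase A family, also grouped afterwards, 8 of 15 genes were compared. In both pairs 5 were at least 2-fold higher, against 1.82% of all genes compared. Ear1, Ear10 and Rnase2a are near-identical genes whose probes may share signal, so their similar values (1.61 and 1.67, 1.35 and 1.40, 1.66 and 1.39) may be a single measurement.

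Cell cycle genes differed by less. Of 24 mitosis genes compared, 22 were higher in both pairs and none lower in both, against 39.2% and 22.8% of all genes compared, but only Ube2c, the ubiquitin-conjugating enzyme of the anaphase-promoting complex, was past 2-fold in both (1.37 and 1.09; its other probe gave 1.20 and 0.54). The list median was 0.83 in the wild type pair and 0.48 in the null-labelled pair, against 0.21 and 0.04 over all genes. Aurka, a spindle kinase, stood at 3.79 and 4.03 in HSC and at 4.82 and 4.82 in LMPP. Birc5, survivin, stood at 6.34 and 6.38 in HSC and at 7.01 and 6.75 in LMPP. Mki67, the proliferation antigen, was the member without a shared direction at the bright end, with differences of 0.33 and -0.30. The mitosis genes were thus mostly higher by less than 2-fold. Of 28 DNA replication genes compared none was past 2-fold in both pairs, and their median was 0.33 and 0.16. None of the CDK inhibitor and D cyclin genes (13 compared) or glycolysis genes (17 compared) was past 2-fold in both pairs. Of all genes compared, 1.82% were at least 2-fold higher in both pairs and 1.86% lower. At those shares lists of this size can hold none, so these counts do not set the lists apart from other genes.

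**Figure D3:**
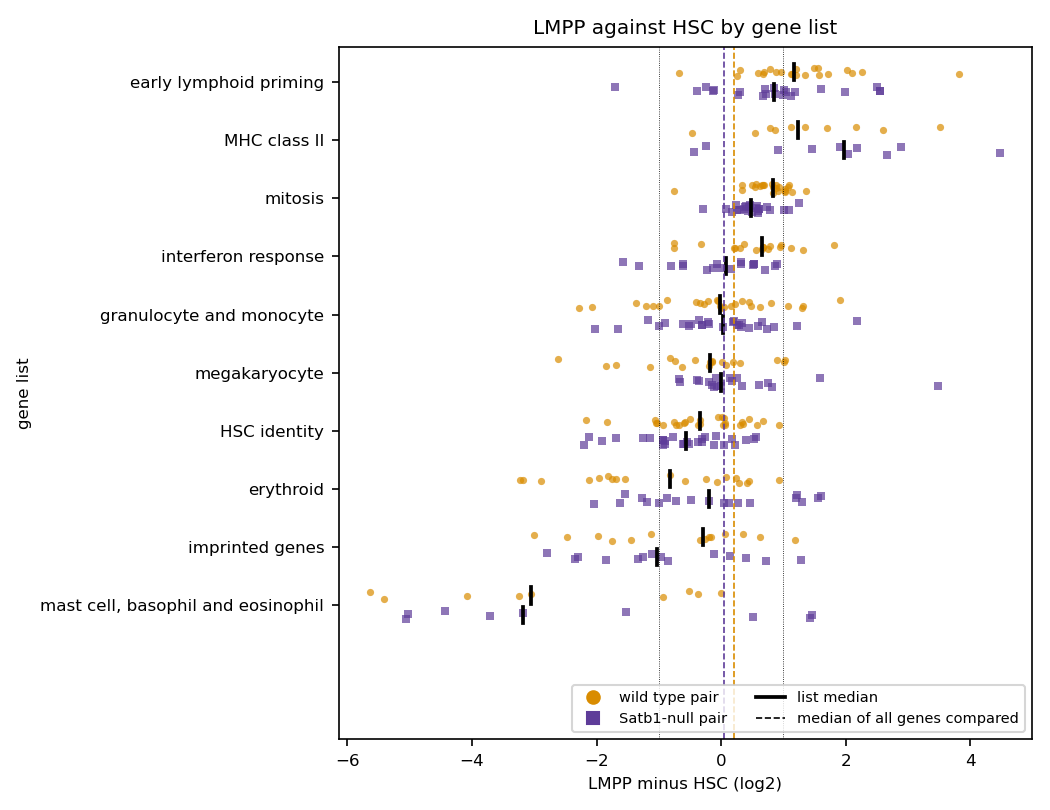
LMPP minus HSC difference (log2, x axis) of each compared gene in 10 gene lists (y axis), for the wild type pair (orange circles) and the Satb1-null pair (purple squares), with black bars at the list medians and dashed lines at the medians of all genes compared, 0.21 and 0.04. Early lymphoid and MHC class II genes sit to the right in both pairs and mast cell genes split, with 5 genes far to the left and the eosinophil genes near 0 or above.

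Mast cell genes gave the widest differences toward HSC. Of 13 genes of the mast cell, basophil and eosinophil list 9 were compared. In both pairs 5 were at least 2-fold lower in LMPP and none higher, against 1.86% and 1.82% of all genes compared. The medians were -3.05 and -3.17. Cpa3, mast cell carboxypeptidase, stood at 1.59 and 2.18 on the wild type and null-labelled HSC arrays and at -2.85 on the null-labelled LMPP array, and was short of the background call on the wild type LMPP array, so it was at least 40.1-fold lower on average. Cma1, chymase, stood at 0.05 and 1.08 in HSC and was above background on neither LMPP array, so it was at least 23.8-fold lower. Il1rl1, the receptor for IL-33, stood at 1.58 and 1.71 in HSC and at -3.82 and -1.99 in LMPP. For each of the 3 the gap between the populations was wider than the gap between genotypes. Tpsb2, a tryptase, stood at 2.56 and 3.15 in HSC and at -0.69 and -1.27 in LMPP, and its other probe gave differences of -4.84 and -4.62. Hdc, which makes histamine, stood at 2.01 and 2.61 in HSC and at -1.04 and -0.56 in LMPP. Slc18a2, the vesicular transporter that loads histamine and serotonin into granules, stood at 1.61 and 1.93 in HSC and at -0.65 and -0.63 in LMPP, and its other probe gave -2.28 and -2.12. Slc6a4, the serotonin transporter, was above background in HSC and not in LMPP, at -1.35 and -2.10 in HSC. The 3 genes of amine synthesis and transport were thus lower in LMPP of both genotypes. They belong to a group of histamine and serotonin handling formed after the values had been seen, in which 4 of 14 compared genes were at least 2-fold lower in both pairs, against 1.86% of all genes compared. Not all granulocyte genes of the list followed: Fcer1a, Ms4a2 and Mcpt8, defining genes of mast cells and basophils, were above background on none of the 4 arrays, and the eosinophil genes Prg2 and Epx differed by -0.00 and 1.42 and by -0.37 and 1.45. The summed level of the list was 21.8 and 29.9 in HSC and 5.69 and 13.7 in LMPP, and the part of mast cells or their precursors in the HSC gate was not tested.

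Erythroid regulators were lower in LMPP while globins were not. Of 25 erythroid genes 19 were compared. In both pairs 5 were at least 2-fold lower and none higher, against 1.86% and 1.82% of all genes compared. The pairs differed: 0 genes were 2-fold higher and 9 lower in the wild type pair, and 5 and 6 in the null-labelled pair. The medians were -0.82 and -0.20. Gata1, the master factor of erythroid and mast cell programmes, stood at 2.17 and 2.69 on the wild type and null-labelled HSC arrays and at 0.05 and 1.06 on the LMPP arrays. Epor, the erythropoietin receptor, stood at 0.00 and 0.60 in HSC and at -1.75 and -0.94 in LMPP. Klf1, the activator of adult globin genes, stood at -1.99 and -1.46 in HSC and at -2.65 in null-labelled LMPP, and was not well above background in wild type LMPP. Rhd and Rhag, of the Rh complex, were the other 2, lower by 1.82 and 1.01 on the log2 scale and by at least 3.22 and by 1.27. Tfr2, a transferrin receptor that associates with Epor, was also lower, by 1.86 and 1.07 on the log2 scale, and Gata2, the factor that precedes Gata1, by 1.02 and 1.91. Hba-a1, of the alpha globins, stood at 3.39 and 5.01 in HSC and at 3.83 and 6.23 in LMPP. Slc4a1, the band 3 anion exchanger, differed by -0.24 and 1.29, and Alas2, of haem synthesis, by -2.88 and 0.46. Structural red cell genes thus ran higher on the null-labelled LMPP array than on the other 3, and the summed level of the list was 88.6 and 129.6 in HSC and 82.2 and 200.9 in LMPP, whose part in these results was not tested.

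To show where the letters bound by Gata factors stood, promoters of 3 genes lower in LMPP that hold AGATAA are printed for the same window of RefSeq GRCm38.p6, with the match in capitals; TTATCT is the motif on the opposite strand. Cpa3 lies at chr3:20242132-20242431 on the minus strand, Il1rl1 at chr1:40429320-40429619 on the plus strand, where the first of 2 listed starts is shown, and Slc18a2 at chr19:59260628-59260927 on the plus strand.
Cpa3: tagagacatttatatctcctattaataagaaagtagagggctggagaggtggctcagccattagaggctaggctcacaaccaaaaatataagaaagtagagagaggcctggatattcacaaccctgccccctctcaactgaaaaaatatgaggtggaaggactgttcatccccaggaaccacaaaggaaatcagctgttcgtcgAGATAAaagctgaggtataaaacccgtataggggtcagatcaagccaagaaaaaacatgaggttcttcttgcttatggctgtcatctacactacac
Il1rl1: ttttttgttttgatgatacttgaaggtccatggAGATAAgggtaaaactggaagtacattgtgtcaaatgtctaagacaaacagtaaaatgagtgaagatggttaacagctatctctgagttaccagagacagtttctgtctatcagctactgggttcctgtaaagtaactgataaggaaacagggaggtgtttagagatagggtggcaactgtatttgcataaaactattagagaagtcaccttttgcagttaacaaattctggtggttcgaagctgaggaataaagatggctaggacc
Slc18a2: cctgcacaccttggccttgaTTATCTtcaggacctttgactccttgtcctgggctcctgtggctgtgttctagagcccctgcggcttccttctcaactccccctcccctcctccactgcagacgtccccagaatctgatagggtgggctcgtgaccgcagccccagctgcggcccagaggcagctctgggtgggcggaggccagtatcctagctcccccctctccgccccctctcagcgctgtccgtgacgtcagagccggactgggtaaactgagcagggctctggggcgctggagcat
The match lies 46 bases before the start in Cpa3, 217 before it in Il1rl1 and 230 before it in Slc18a2. The motif stood in 9.38% of promoters of the genes lower in LMPP, in 5.98% of those higher, in 7.04% of those of all genes compared and in 11.4% of all promoters in the table. The share among the lower genes was thus above that of the genes compared, from which they were drawn, and below that of the whole table. These shares were not tested.

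**Figure D4:**
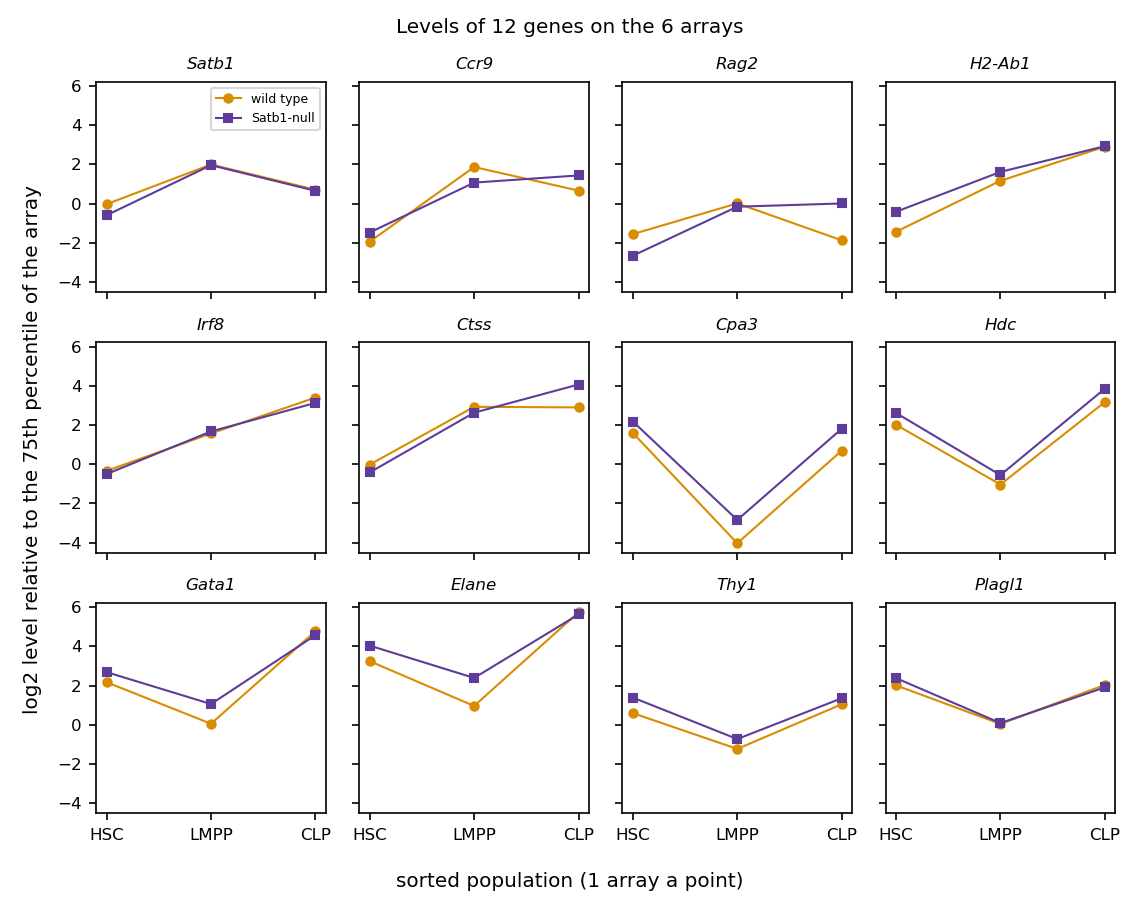
Log2 level relative to the 75th percentile of each array (y axis) for 12 genes in HSC, LMPP and CLP (x axis), wild type in orange circles and Satb1-null in purple squares, 1 array a point. Satb1, Ccr9, Rag2, H2-Ab1, Irf8 and Ctss are higher in LMPP than in HSC in both genotypes, and the other 6 genes, such as Cpa3 and Gata1, have their lowest level in LMPP in both genotypes.

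Genes of stem cell identity were more often lower than higher in LMPP. Of 30 listed genes 28 were compared; 14 were lower in both pairs and 4 higher, against 22.8% and 39.2% of all genes compared, and 2 were at least 2-fold lower in both, against 1.86%. The medians were -0.34 and -0.57, against 0.21 and 0.04 over all genes. Thy1, a surface marker of mouse HSC, stood at 0.59 and 1.38 on the wild type and null-labelled HSC arrays and at -1.24 and -0.73 on the LMPP arrays. Gata2 was the other gene past 2-fold in both. Mllt3, a cofactor that maintains HSC, differed by -2.17 and -0.93, and Tek, the angiopoietin receptor, by -0.67 and -2.20. Esam, an adhesion molecule of HSC, was lower by 0.93 and 1.68 on the log2 scale, Prdm16 by 1.06 and 0.90, Angpt1 by 0.58 and 0.93, and Mecom, which encodes Evi1, by 0.72 and 1.13. Hlf, Procr and Mycn, also stem cell genes, differed by 0.34 and -0.38, by 0.06 and -0.62 and by 0.01 and -0.26. Hmga2, of fetal stem cells, was higher by 0.67 and 0.52. The bright genes Msi2 and Mycn were nearly equal. The Hox, Meis and Pbx genes (13 compared) held none past 2-fold in both pairs, with Meis1 at differences of -0.60 and -0.30.

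Imprinted genes, which are expressed from the allele of 1 parent, included 4 of 14 compared that were at least 2-fold lower in LMPP in both pairs and none higher, against 1.86% and 1.82% of all genes compared. The medians were -0.30 and -1.04, and with each array centred on its median the wild type value was 0.00. Plagl1, also called Zac1, a factor that regulates other imprinted genes, stood at 2.01 and 2.38 on the wild type and null-labelled HSC arrays and at 0.04 and 0.09 on the LMPP arrays. Its other probes gave -2.42 and -2.49, -0.47 and -0.14, and 0.58 and -1.08, so they did not all show the difference. Grb10, a growth factor receptor adaptor, stood at -0.12 and 0.04 in HSC and at -1.87 and -2.76 in LMPP. Meg3, a long non-coding RNA, stood at -0.87 and -0.87 in HSC and at -3.22 in null-labelled LMPP, and was not well above background in wild type LMPP. Peg3 was lower by 1.13 and 1.33 on the log2 scale, and its other probe did not show this (1.1 and 0.03). Dlk1, next to Meg3 on its chromosome, did not follow it in the wild type pair, with differences of 0.06 and -1.11, and Igf2 differed by -0.26 and -1.85.

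Other genes of the 15 ranked lowest in LMPP were not on the lists above. Slc7a8, an exchanger of neutral amino acids, stood at 2.81 and 3.45 on the wild type and null-labelled HSC arrays and at -0.81 and 0.19 on the LMPP arrays, a 10.9-fold mean difference. Tgm2, tissue transglutaminase, stood at 2.88 and 3.14 in HSC and at 0.08 and -0.54 in LMPP, and its other probe gave -2.39 and -2.68. Dach1, a transcriptional cofactor, stood at 3.46 and 3.68 in HSC and at 1.45 and 1.67 in LMPP, so both pairs gave -2.01. In each of these genes both HSC arrays lay above both LMPP arrays. Slc38a5, a glutamine transporter, was lower by 2.18 and 2.01 on the log2 scale and Creb3l2, an ER-bound transcription factor, by 2.42 and 1.84. Pstpip2, an adaptor of the actin cytoskeleton, was lower by 2.06 and 2.88, but its other probe gave -1.28 and 1.32, so the null-labelled pair is uncertain. Dbndd1 was lower by 1.86 and 3.58. D630039A03Rik and Gm11110, of unnamed function, were lower by 2.37 and 2.84 and by 2.13 and 2.81. Of genes above background in HSC and not in LMPP, Nectin1, an adhesion molecule, was at least 13.9-fold lower. Add2, beta adducin of the membrane skeleton, was at least 10.8-fold lower. Scd1, a fatty acid desaturase, was at least 6.46-fold lower, and Gpc4, a cell surface proteoglycan, at least 5.39-fold. On the wild type and null-labelled CLP arrays Nectin1 stood at -0.48 and -0.81 and Add2 at 2.72 and 2.23. Scd1 stood there at 0.55 and -0.63 and Gpc4 at 1.01 and 0.92.

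Of 22 cytokine receptor genes compared, 1 was at least 2-fold higher in both pairs and 1 lower. Of 24 adhesion and homing genes compared, 2 were higher and none lower. Of all genes compared, 1.82% were at least 2-fold higher in both pairs and 1.86% lower. Il1r1, the IL-1 receptor, stood at -1.97 and -1.0 on the wild type and null-labelled HSC arrays and at 0.36 and 0.88 on the LMPP arrays, and was with Epor the only gene past 2-fold among 22 cytokine receptor genes compared. Csf3r, the receptor for G-CSF, differed by -0.41 and 0.04. Of 24 adhesion and homing genes compared, Ccr9 and Cxcr4 were past 2-fold, and Cxcr4, which retains cells near Cxcl12, stood at 4.22 and 4.52 in HSC and at 5.24 and 5.52 in LMPP. Mycl, of the Myc family, was not above background in HSC and stood at -2.67 and -1.0 in LMPP, the 1 gene past 2-fold of 27 in the Myc and ribosome biogenesis list. Of 10 endothelial and stromal genes compared, Lyve1 was past 2-fold, at -2.44 and -2.90 in LMPP and not above background in HSC. Of the Gimap family, GTPases of lymphocytes grouped after the values had been seen, Gimap4 (1.18 and 1.43) and Gimap7 (1.79 and at least 1.67) of 8 compared were past 2-fold. No Notch pathway gene of 12, interferon response gene of 18 or immediate early and heat shock gene of 20 compared was past 2-fold in both pairs. The interferon list had medians of 0.66 in the wild type pair and 0.07 in the null-labelled pair, the latter with a changed sign (-0.02) in the authors' values as deposited.

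The CLP arrays show where the repeated genes stood in the other sorted population. For the 148 genes higher in LMPP, the wild type medians of HSC, LMPP and CLP were -1.27, 0.41 and -0.21, and the null-labelled medians were -1.10, 0.51 and 0.13. In the wild type 41 of these genes stood above both other populations in CLP, 48 between them and 59 below both, and in the null-labelled genotype 46, 61 and 41 did. For the 140 genes lower in LMPP, the medians were -0.26, -1.87 and -1.0 and then -0.01, -1.74 and -1.34. In the wild type 41 of these stood above both other populations in CLP, 41 between them and 58 below both, and in the null-labelled genotype 35, 48 and 57 did. CLP levels lay between the others in the medians, with wide variation by gene. The genes were chosen for a gap between HSC and LMPP, which sets those medians apart, so an order of the populations was not tested. Ctss, H2-Ab1 and Irf8 were as high or higher in CLP, at 2.90 and 4.07, 2.91 and 2.93, and 3.40 and 3.13. Genes above both in CLP were fewer than genes below both, except for the genes higher in LMPP in the null-labelled genotype (46 and 41). Examples of the former, chosen after their values had been seen, were 4 genes: Gata1 stood at 4.77 and 4.57, Elane at 5.74 and 5.63, Il1rl1 at 3.01 and 2.80 and Hdc at 3.17 and 3.85. The granulocyte and monocyte list summed to 602.8 and 687.7 in LMPP and to 2328 and 2071 in CLP, and the part of other cells in the CLP gate was not tested. Tpsb2 and Cma1 did not return, with -1.57 and -2.11 for Tpsb2 and no signal well above background for Cma1.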

How the data were processed

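RNA of sorted fetal liver progenitors was measured on 6 single-channel Agilent arrays, 1 per group, after amplification of 6.1 ng of total RNA with Ovation Pico WTA V2 and Cy3 labelling, per the labels' protocols. The deposited values are linear spot intensity, background-subtracted and detrended with Agilent Feature Extraction 10.10.1.1 per the file headers, which also hold the authors' scanner calls of 0 or 1 for spots well above background. The authors' series table holds the same intensity times 1 constant per array, with no basis stated in the labels or headers.

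Control spots (3671 of 62976) and 154 to 181 outlier spots per array were left out, and no spot was saturated. Log2 intensity was centred on each array's 75th percentile, spots of a probe were averaged, and a gene took its brightest probe. Of 55681 probes 27235 had a gene name in the files. A value not well above background was set to the array's lowest signal that was, when below it, and a fold from such a value is written as "at least". A gene was compared where the brighter array of each pair was well above background. The population effect was fitted with limma 3.58.1 in R 4.3.3 with genotype as a block on the 4 arrays, with Benjamini-Hochberg adjustment at 0.05 over all genes tested. The scripts were tested on simulated data. P-values measure only the spread between the 2 pairs, which limma moderates toward the spread of all genes (4.74 prior degrees of freedom). Alternatives changed the centring, background correction, probe rule, filter, floor, arrays, block, trend and thresholds. Normexp used the median spot signal, since the files used here have no mean signal.

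Named genes were the sort markers and Satb1, the 15 highest and 15 lowest ranked by the smaller pair difference, up to 5 each way that rest on a bound, up to 4 members of each list past 2-fold with up to 2 bright ones that were not, and up to 3 each way with opposite pairs. Other named genes were chosen after their values had been seen. The members and lists were chosen with earlier results of these data known. Promoters were matched by symbol to RefSeq.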

Additional observations from a re-analysis of the deposited data

Results flagged for a closer look

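6 genes had differences of opposite sign in the pairs, LMPP minus HSC, being the widest 3 each way among genes well above background on all 4 arrays, and the difference between genotypes was not tested. Tmem132a stood at -3.52 and -0.52 on the wild type HSC and LMPP arrays and at 0.21 and -2.96 on the null-labelled ones, so the differences were 3.0 and -3.17. Slc25a42, a mitochondrial carrier of coenzyme A, gave 1.71 and -2.68, and Brwd3 gave 1.81 and -1.67. Gapt, an adaptor that binds Grb2, ran the other way, from -0.84 to -2.94 in the wild type and from -2.60 to -0.28 in the null-labelled pair, with differences of -2.10 and 2.32. Chst2, a sulfotransferase, gave -1.72 and 1.71, and Nyap1 gave -2.02 and 1.59. With 1 array a group, genotype, embryo and array cannot be told apart in these values.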

How the results depend on the processing

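Counts by limma (main 0 higher and 1 lower) were 323 and 170 with median centring, 15 and 19 with normexp and quantile normalization, 8 and 10 with the mean over probes, 30 and 26 for genes well above background on all 4 arrays, 13 and 16 without the floor, 224 and 151 with a mean-variance trend, and 29 and 28 at an adjusted p under 0.10. The count lower was 0 with the percentile over probes well above background on all 4 arrays, in the authors' values as deposited, without a filter, with all 6 arrays and with no genotype block; at an unadjusted p under 0.05 the main fit had 949 higher and 786 lower. Leaving out each array in the fit of 6 gave 0 higher and 0 to 1 lower; the arm then left with 1 array is assumed to vary like the others. Genes at least 2-fold in both pairs (main 233 and 239) were 357 and 149 with median centring, 60 and 52 with normexp, 148 and 140 when well above background on all 4 arrays, 796 and 613 at 1.5-fold and 61 and 66 at 3-fold. Higher genes made up 49.4% of the main repeated calls, 70.6% with median centring, 35.5% with the detected-probe percentile and 32.4% in the values as deposited. No paired analysis was possible because each group has 1 array, other than the pairing by genotype that is already in the fit. The adjusted p-values rest on 1 residual degree of freedom and 4.74 prior ones taken from all genes, and dim genes rest on bounds. The authors' values as deposited and the adjusted p under 0.10 were chosen after seeing the data.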

Other observations

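Further genes past 2-fold in both pairs lay outside the lists and were chosen after their values had been seen. The metallothionein genes Mt1 and Mt2, which bind zinc and copper, were lower in LMPP by 2.17 and 1.57 and by 2.12 and 1.64 on the log2 scale. Mt2 stood at 4.93 and 2.82 on the wild type HSC and LMPP arrays and at 5.90 and 4.25 on the null-labelled ones. Of 3 genes of basement membrane proteins, Col4a1 differed by -1.52 and -2.85, Col4a2 by -1.46 and -2.08 and Lama2 by -1.54 and -1.72. Apoe, a lipid carrier, stood at 5.09 and 3.58 and at 5.29 and 3.64. Tgfbr3, a co-receptor for TGF-beta, and Prom1, CD133, differed by -1.57 and -2.57 and by -1.32 and -2.44.

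Genes past 2-fold higher included some that are expressed in phagocytes. None of the 5 genes compared on the macrophage list was past 2-fold in both pairs, and its medians were -0.44 and 0.40. Of all genes compared, 1.82% were at least 2-fold higher in both pairs and 1.86% lower, so a list of 5 can hold none. Mpeg1, a pore-forming protein of macrophages, stood at -1.44 and 1.33 on the wild type HSC and LMPP arrays and at -0.11 and 1.88 on the null-labelled ones. Cx3cr1, the fractalkine receptor, differed by 1.64 and 1.48, Trem2 by 1.17 and 1.81 and Pld4 by 1.91 and 2.95. The purinergic receptors P2rx7 and P2ry6 differed by 1.58 and 1.70 and by 2.24 and 1.18. Tnfsf11, which encodes RANKL, differed by 2.10 and 1.83, and the transcription factors Maf and Bcl6 by 1.64 and 1.39 and by 1.8 and 1.35.

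Probes without a gene name also held repeated differences. Of 5964 probes for genomic intervals that were well above background on all 4 arrays, 60 (1.01%) were at least 2-fold higher in LMPP in both pairs, 115 (1.93%) lower and 108 opposite. Of 15211 named probes that passed the same call, 187 (1.23%) were higher, 175 (1.15%) lower and 92 opposite. Opposite differences thus outnumbered the higher ones but not the lower ones among interval probes, and were fewer than either among named probes. Whether the interval probes lie in transcribed regions was not tested.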
